A study of Homo sapiens with 6 samples.

Results

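The 10 genes described here encode G1 cyclins (CCND1, CCND2, CCND3, CCNE1 and CCNE2), cyclin-dependent kinases (CDK4 and CDK6) and CDK inhibitors (CDKN1A, CDKN1B and CDKN2A). They were taken by symbol from a table of 58884 genes, in which 0 of the 10 symbols was repeated. Of the 10, 9 reached a mean normalized read count of at least 10 over the 6 libraries and were tested among 15994 genes that did so. The remaining gene, CDKN2A, had 0 reads in all 6 libraries.

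RNA-seq compared KYSE70, a human esophageal squamous cell carcinoma (ESCC) line with a mutant NRF2 (gene NFE2L2), with NRF2null-KYSE70, which was made from it by aiming CRISPR-Cas9 at a coding exon of NFE2L2 (n = 3 libraries per line). Both lines were untreated and were grown in RPMI1640 medium with fetal bovine serum, and both keep the KYSE70 background. NRF2null-KYSE70 is 1 expanded clone, so loss of NRF2 and other properties of that clone cannot be told apart, and the guide does not cut every NFE2L2 transcript variant. Nothing states that the 3 libraries of a line came from separate cultures, so the p-values measure the spread between these libraries, which may be technical.

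During G1 phase, D-type cyclins bind CDK4 or CDK6, E-type cyclins bind CDK2, and the active kinases phosphorylate the retinoblastoma protein RB, which frees E2F factors to transcribe genes for DNA synthesis. The CIP/KIP inhibitors p21 (CDKN1A) and p27 (CDKN1B) block CDK2 complexes and also associate with cyclin D complexes, whereas the INK4 inhibitor p16 (CDKN2A) binds CDK4 and CDK6 directly. In ESCC, gain of CCND1 and loss or silencing of CDKN2A are well-known lesions of this pathway.

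The libraries held 52072801 to 63975313 reads assigned to genes, and 1 read was worth 0.889 to 1.14 normalized read counts, the unit used below. Pairs of libraries within a line differed by 4.70 to 25.4 times the sampling noise (chi-square per degree of freedom), and the first NRF2null-KYSE70 library lay farthest from the others of its line (25.4 and 24.7). NFE2L2 itself fell to 61.4% of the KYSE70 level (log2 fold change -0.71, limma adjusted p = 9.37e-08), which checks the labels only in part because a small edit need not remove the mRNA. All 8 squamous epithelial markers were tested, and 5 rose and 3 fell, with summed levels of 310612 to 317989 in KYSE70 and 233173 to 245252 in NRF2null-KYSE70. KRT14 (log2 fold change 1.74), KRT6A (0.69, and 1.07 after the arm median was subtracted) and KRT17 (0.66) rose, and TP63 (-0.92), KRT5 (-0.75, and -0.37 likewise) and DSG3 (-0.74) fell. Among markers of other cell types, 2 of 6 fibroblast genes were testable and both fell, COL3A1 (-4.79) and COL1A1 (-1.16), with COL1A2 and DCN at 0 and summed levels of 1384 to 1618 and 471 to 622. Of 5 leukocyte genes only PTPRC was testable, at 0 to 1.05 in KYSE70 and 40.2 to 48.0 in NRF2null-KYSE70, with summed levels of 0 to 12.7 and 42.2 to 58.2. Of 4 endothelial genes only VWF was testable and it rose (1.28), with KDR at 0 and summed levels of 133 to 149 and 275 to 450.3. The part of these markers in the results below was not tested, and in such bulk libraries fewer cells of a type cannot be told apart from less RNA per cell.

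The G1 genes were split between rises and falls. CCND1, CCND2, CDKN1A and CDKN1B were higher in NRF2null-KYSE70, CCND3, CCNE1, CCNE2 and CDK4 were lower, and CDK6 did not pass the test. Thus 8 of the 9 tested members passed an adjusted p of 0.05 by limma, against 57.6% of all tested genes, with 4 higher (29.3% of all genes) and 4 lower (28.3%). The median size of the change, on the log2 scale and without its sign, was 0.58 for the 9 genes and 0.36 for all genes tested. The 3 libraries of each line did not overlap for 8 of the 9 genes, as was true of 63.4% of all genes. When a size of 0.5 or more on the log2 scale was also required, 7 of the 9 genes passed, against 30.7% of all genes. CCND2 was the only member past both an adjusted p of 0.05 and a log2 fold change of 1 in size, which 14.7% of all genes passed (7.23% upward and 7.43% downward).

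**Figure D1:**
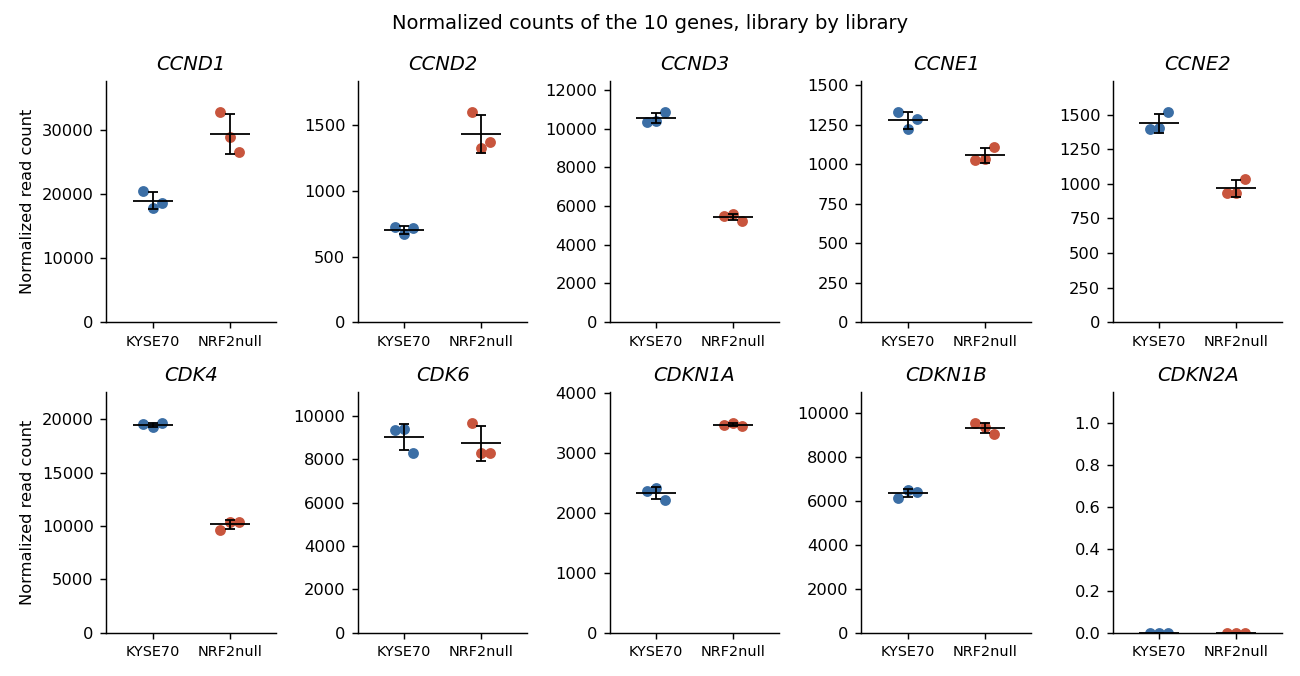
Normalized read counts (vertical axis, from 0 in each panel) of the 10 genes in the 3 KYSE70 libraries (blue) and the 3 NRF2null-KYSE70 libraries (red), with bars for the mean and SD. The libraries of the 2 lines overlap for CDK6 alone among the 9 detected genes, and CDKN2A lies at 0 throughout.

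Promoter sequences from RefSeq were read for the members, since the G1 genes moved in both directions. Windows were found for 7 of the 10 symbols, and none was found for CCND1, CCND2 and CCNE2. The 250 bases upstream of the RefSeq start (GRCh38.p14) are shown for the members CDK4 and CCND3, which fell to 52.1% and 51.6% of the KYSE70 level, and for the inhibitors CDKN1A and CDKN1B, which rose. Each runs 5′ to 3′ on the strand of its gene. Capitals mark 4 motifs searched on both strands, namely the E-box CACGTG, the core of the antioxidant response element TGACNNNGC, which NRF2 is known to bind, the GC box GGGCGG and an E2F-type site TTTNNCGC.
CDK4, chr12:57752311-57752560, minus strand: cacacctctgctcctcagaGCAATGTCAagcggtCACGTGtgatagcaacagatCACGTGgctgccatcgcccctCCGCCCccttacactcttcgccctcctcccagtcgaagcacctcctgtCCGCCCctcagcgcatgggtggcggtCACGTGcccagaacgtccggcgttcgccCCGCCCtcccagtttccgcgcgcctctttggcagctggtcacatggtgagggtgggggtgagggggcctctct
CCND3, chr6:42048689-42048938, minus strand: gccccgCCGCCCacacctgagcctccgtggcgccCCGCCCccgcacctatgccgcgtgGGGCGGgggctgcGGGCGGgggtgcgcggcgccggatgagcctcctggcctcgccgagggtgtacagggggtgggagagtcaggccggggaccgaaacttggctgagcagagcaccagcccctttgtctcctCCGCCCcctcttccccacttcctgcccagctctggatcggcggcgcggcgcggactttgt
CDKN1A, chr6:36678464-36678713, plus strand: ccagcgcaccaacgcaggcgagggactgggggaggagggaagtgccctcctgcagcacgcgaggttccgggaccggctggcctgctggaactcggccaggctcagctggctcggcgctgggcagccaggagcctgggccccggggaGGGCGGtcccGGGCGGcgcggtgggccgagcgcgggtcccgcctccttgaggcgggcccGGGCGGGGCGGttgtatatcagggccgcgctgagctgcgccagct
CDKN1B, chr12:12717118-12717367, plus strand: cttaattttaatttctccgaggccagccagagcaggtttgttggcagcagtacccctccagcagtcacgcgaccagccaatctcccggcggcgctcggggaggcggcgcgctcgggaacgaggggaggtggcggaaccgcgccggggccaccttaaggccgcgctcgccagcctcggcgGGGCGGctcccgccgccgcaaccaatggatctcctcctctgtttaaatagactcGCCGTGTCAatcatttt

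The CDK4 window held 3 E-boxes, which began 216, 196 and 101 bases before the start. Among all 35116 RefSeq windows of this length, 6.34% held an E-box and 0.0797% held 3 or more. The same window held 1 match to the antioxidant response element core, 231 bases before the start, and 3 GC boxes. Such a core was present in 10.9% of all windows. It was also found 17 bases before the start of CDKN1B and 238 bases before that of CCNE1 (chr19:29811741-29811990), so it occurred beside members that fell and beside 1 that rose. The CCND3 window shown held 5 GC boxes, that of CDKN1A held 4, of which 2 share a base, and that of CDKN1B held 1. Of all windows, 42.6% held at least 1 and 13.9% held 3 or more. CCND3 has 3 RefSeq windows, and the one shown lies within 100 bases of 11 of its 23 annotated transcript starts. Its windows at chr6:41941809-41942058 and chr6:41939206-41939455 held 2 and 0 GC boxes. No match to the E2F-type letters, found in 5.92% of all windows, was present in any window of a member. These matches describe letters and not binding.

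Among the D-type cyclins, which link growth signals to CDK4 and CDK6, the members moved in opposite directions. CCND1 (ENSG00000110092, chr11:69641156-69654474, plus strand, GENCODE v44 on hg38) had normalized read counts of 20516, 17817 and 18566 in KYSE70 and 32712, 28905 and 26579 in NRF2null-KYSE70. Every NRF2null library was above every KYSE70 library, and the mean rose from 18966 ± 1393 to 29398 ± 3096 (SD, n = 3), or to 155% of the KYSE70 level. The log2 fold change was 0.63 (95% interval 0.47 to 0.79, limma adjusted p = 9.49e-06) and was 0.55 without the first NRF2null library. CCND1 mRNA was abundant, as 97.5% of tested genes had a lower level per kb of exon. CCND1 shares 10.4% of its exon bases with LTO1 on the opposite strand, a gene with a mean of 1437 and a log2 fold change of 0.16 (adjusted p = 0.0628). Since the strand setting of the counting is not given in the sources used here, reads from such stretches may have been left out or assigned to either gene. The 13 other tested protein-coding genes within 1 Mb had a median log2 fold change of 0.16.

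CCND2 (ENSG00000118971, chr12:4269771-4305353, plus strand) was the least abundant of the detected G1 genes per kb. Its change was the largest of the members here, but CCND3 and CDK4 exceeded it in size with total scaling and with quantile normalization. Without the first NRF2null library CCND3 exceeded it too. Its counts were 727, 669 and 715 in KYSE70 and 1599, 1330 and 1370 in NRF2null-KYSE70. The lowest NRF2null library was well above the highest KYSE70 library. The mean rose from 704 ± 30.2 to 1433 ± 145, or to 204%, with a log2 fold change of 1.02 (95% interval 0.83 to 1.21, adjusted p = 5.11e-07). This value sat at the fold threshold, being 0.99 without the second KYSE70 library and 0.94 without the first NRF2null library, 0.95 with total scaling, and 0.96 after arm-centring, in which the median log2 fold change of the chromosome arm is subtracted. Of its 7 neighbours within 1 Mb, 3 were higher and 4 were lower, with a median of -0.14, and the median of 12p was 0.06. CCND2 shares 12.5% of its exon bases with ENSG00000285901 on the same strand, a gene with a mean of 0. Reads that fit both genes may have been left out.

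CCND3 (ENSG00000112576, chr6:41934934-42050357, minus strand) showed the reverse. Its counts were 10356, 10424 and 10842 in KYSE70 and 5504, 5571 and 5248 in NRF2null-KYSE70. The 2 lines were far apart and the libraries within each line were close. The mean fell to 51.6% of the KYSE70 level, from 10541 ± 263 to 5441 ± 170.3, with a log2 fold change of -0.95 (95% interval -1.06 to -0.85, adjusted p = 3.67e-09). Genes near CCND3 did not move with it, as 23 neighbours within 1 Mb had a median of 0.06 and the arm 6p had a median of 0.00. Of all tested genes, 82.5% changed by less than CCND3.

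These shifts altered the makeup of the D-type cyclin mRNA pool. Expressed per kb of exon, CCND1 made up 69.5%, 66.4% and 66.4% of the summed CCND1, CCND2 and CCND3 level in KYSE70 and 85.6%, 84.3% and 83.8% in NRF2null-KYSE70. The mean share rose from 67.5% ± 1.80 to 84.5% ± 0.953 (SD, n = 3), a difference of 17.1 percentage points without overlap. A 2-sided exact permutation test gave p = 0.1, the smallest that 3 libraries against 3 allow, and 0.133 after adjustment over 4 such shares. The summed level per kb went from 5901 ± 282 to 7299 ± 685, a ratio of 1.24 (exact permutation p = 0.1). With these lengths the pool was thus not smaller despite the lower CCND3. The sum depends on the lengths used, as CCND3 has 5761 exon bases in union but 2394 in its longest transcript. Other lengths were tried for the share and not for the sum. With the longest transcripts the mean CCND1 share was 49.8% in KYSE70 and 73.6% in NRF2null-KYSE70, and with no length term 62.7% and 81.0%. With the union lengths CCND3 supplied 29.0% to 32.1% of the pool in KYSE70 and 11.9% to 13.7% in NRF2null-KYSE70. CCND2 remained a small part of it at 1.47% to 2.57% over the 6 libraries.

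Both kinases of the D-type cyclins were detected, and they differed in response. CDK4 (ENSG00000135446, chr12:57747727-57756013, minus strand) had counts of 19580, 19292 and 19645 in KYSE70 and 9674, 10425 and 10399 in NRF2null-KYSE70. The 3 libraries of each line lay close together and the lines were clearly separate. The mean fell from 19506 ± 188 to 10166 ± 426, or to 52.1%, with a log2 fold change of -0.94 (95% interval -1.04 to -0.84, adjusted p = 3.55e-09). Genes around CDK4 were also lower in NRF2null-KYSE70. Of 33 neighbours within 1 Mb, 29 were lower and 4 were higher, and their median was -0.60, while the median of the whole arm 12q was -0.38. After arm-centring CDK4 was at -0.56 (adjusted p = 4.94e-07). The part of the arm in the lower CDK4 level was not tested. CDK4 shares 44.2% of its exon bases with TSPAN31 on the opposite strand, which had a mean of 1511 and a log2 fold change of -0.33 (adjusted p = 0.0014).

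CDK6 (ENSG00000105810, chr7:92604921-92836573, minus strand) had counts of 9342, 9365 and 8302 in KYSE70 and 9653, 8266 and 8265 in NRF2null-KYSE70. The ranges of the lines overlapped, with the highest and the lowest value both in NRF2null libraries. The log2 fold change was -0.05 (95% interval -0.19 to 0.10, adjusted p = 0.585), and 92.3% of tested genes changed by more. The call was not stable across scalings, as CDK6 reached -0.21 after arm-centring (adjusted p = 0.0189; 7q median 0.17) and -0.15 with quantile normalization (adjusted p = 0.0474), and was -0.12 without the first NRF2null library (adjusted p = 0.0502). CDK6 thus made up 10.8%, 10.9% and 9.65% of the summed CDK4 and CDK6 level per kb in KYSE70 and 20.1%, 16.7% and 16.7% in NRF2null-KYSE70. The mean share rose from 10.4% ± 0.695 to 17.9% ± 1.98 without overlap (exact permutation p = 0.1, adjusted 0.133), and with no length term it rose from 31.6% to 46.2%. The summed level per kb fell to 0.568 of that in KYSE70, from 7040 ± 46.9 to 3999 ± 72.3 (exact permutation p = 0.1), and CDK4 remained the larger part in every library.

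**Figure D2:**
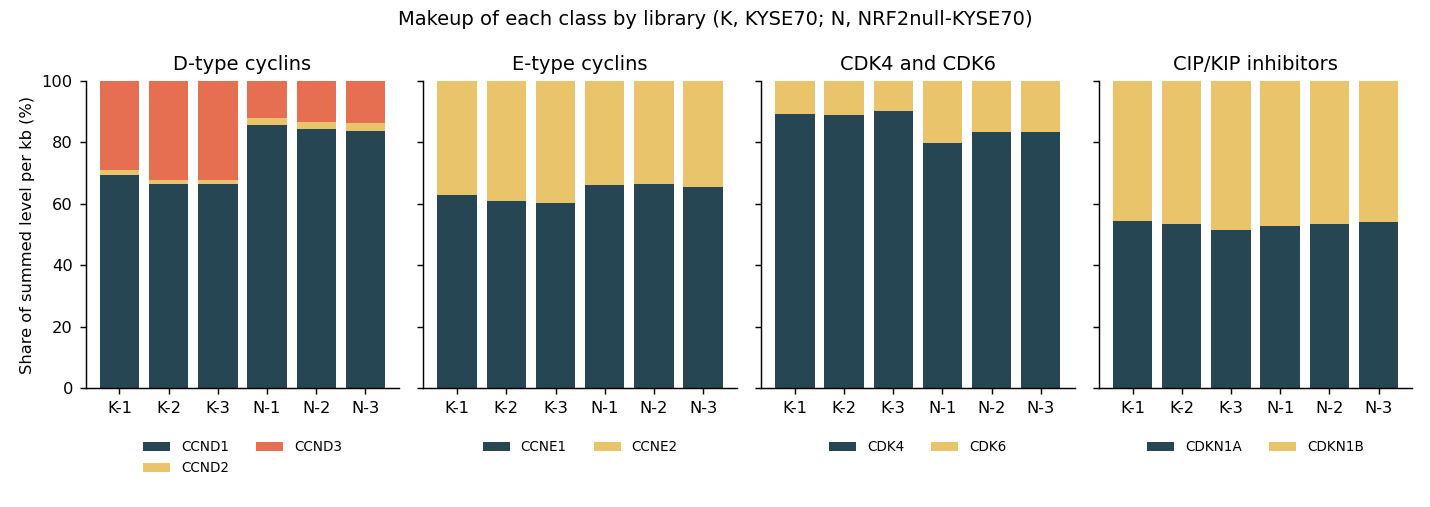
Share of each gene (vertical axis, percent) in the summed level per kb of exon of its class, for each of the 3 KYSE70 (K) and 3 NRF2null-KYSE70 (N) libraries. CCND1 made up 66.4% to 69.5% of the D-type cyclin level in KYSE70 and 83.8% to 85.6% in NRF2null-KYSE70, whereas the CDKN1A share stayed between 51.6% and 54.3% in all 6 libraries. These shares use union exon lengths and differ with other lengths.

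The E-type cyclins, which activate CDK2 at the start of S phase, were both lower in NRF2null-KYSE70. CCNE1 (ENSG00000105173, chr19:29811991-29824312, plus strand) had counts of 1327, 1221 and 1284 in KYSE70 and 1025, 1032 and 1108 in NRF2null-KYSE70. All 3 NRF2null libraries were below the KYSE70 libraries. The mean fell to 82.6%, from 1277 ± 53.3 to 1055 ± 46.3, with a log2 fold change of -0.28 (95% interval -0.43 to -0.12, adjusted p = 0.00512), the smallest of the 8 changes. Its 6 neighbours within 1 Mb had a median of -0.21, of the same sign.

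CCNE2 (ENSG00000175305, chr8:94879770-94896678, minus strand) had counts of 1395, 1402 and 1516 in KYSE70 and 936, 931 and 1038 in NRF2null-KYSE70. Every NRF2null library was below every KYSE70 library, with a mean of 1438 ± 67.9 against 968 ± 60.3, or 67.3%. The log2 fold change was -0.57 (95% interval -0.73 to -0.41, adjusted p = 2.71e-05). Of 11 neighbours within 1 Mb, 6 were higher and 5 were lower, with a median of 0.14. The median of 8q was 0.26, and arm-centring took CCNE2 to -0.83. CCNE2 shares 37.0% of its exon bases with INTS8 on the opposite strand, a gene with a mean of 3083 that had a log2 fold change of 0.00 (adjusted p = 0.963). The summed level of both E-type cyclins per kb fell from 846 ± 27.4 to 649 ± 32.5, a ratio of 0.767, and the share of CCNE1 rose from 61.3% ± 1.43 to 66.1% ± 0.424 (exact permutation p = 0.1 for each, and 0.133 for the share after adjustment).

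The CIP/KIP inhibitors rose together. CDKN1A (ENSG00000124762, chr6:36676460-36687337, plus strand) encodes p21, a well-known p53 target, and had counts of 2364, 2412 and 2218 in KYSE70 and 3473, 3500 and 3451 in NRF2null-KYSE70. The NRF2null libraries were nearly equal and all above those of KYSE70. The mean rose from 2331 ± 101 to 3475 ± 24.4, or to 149%, with a log2 fold change of 0.58 (95% interval 0.46 to 0.69, adjusted p = 1.5e-06). Its 19 neighbours within 1 Mb had a median of -0.20, and those within 3 Mb one of 0.01.

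CDKN1B (ENSG00000111276, chr12:12685498-12722369, plus strand) encodes p27 and had counts of 6148, 6514 and 6432 in KYSE70 and 9543, 9353 and 9065 in NRF2null-KYSE70. The lines were again separate, with a mean of 6365 ± 192 against 9321 ± 241, or 146%. The log2 fold change was 0.55 (95% interval 0.45 to 0.65, adjusted p = 5.58e-07), close to that of CDKN1A. Here the neighbourhood rose as well, since 10 of 13 neighbours within 1 Mb were higher, with a median of 0.69, although the arm 12p had a median of 0.06. The part of that neighbourhood in the rise of CDKN1B was not tested. The summed CDKN1A and CDKN1B level per kb rose from 1466 ± 38.4 to 2167 ± 31.2, a ratio of 1.48 (exact permutation p = 0.1). The CDKN1A share of it was 53.1% ± 1.38 in KYSE70 and 53.5% ± 0.566 in NRF2null-KYSE70, with overlapping libraries (exact permutation p = 0.7). The level of this share depends on the lengths used, as CDKN1B has 9255 exon bases in union but 4335 in its longest transcript. With the longest transcripts it was 41.2% in KYSE70 and 41.6% in NRF2null-KYSE70, and with no length term 26.8% and 27.2%. CDKN1B was thus the larger part under both of these settings.

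**Figure D3:**
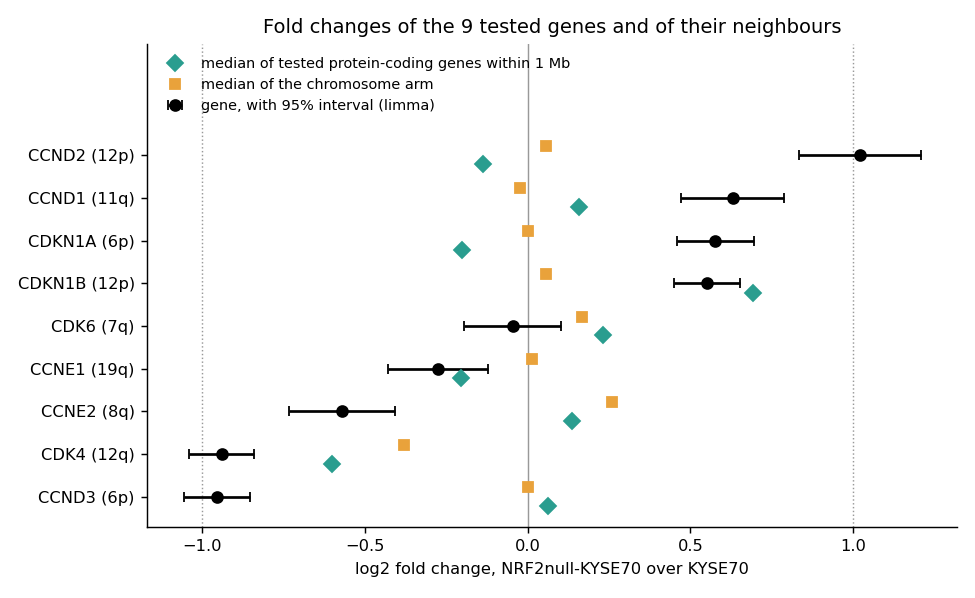
Log2 fold change of NRF2null-KYSE70 over KYSE70 (horizontal axis) for the 9 tested genes with 95% limma intervals (black), the median of tested protein-coding genes within 1 Mb (green diamonds) and the median of the chromosome arm (orange squares), with dotted lines at -1 and 1. CDK4 lies at -0.94 with its neighbours at -0.60, and CDKN1B at 0.55 with its neighbours at 0.69, whereas CCND3 lies at -0.95 with its neighbours at 0.06.

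CDKN2A (ENSG00000147889, chr9:21967752-21995301, minus strand), which encodes p16, had 0 reads in each of the 6 libraries. At these depths 0 reads allows a level of up to 2.67 to 3.42 normalized read counts per library, taking 3 reads as the floor and covering counting error only. No fold change could be given. The adjacent INK4 gene CDKN2B had 1, 0 and 0 reads in KYSE70 and 1, 2 and 0 in NRF2null-KYSE70. In contrast, 3 genes within 1 Mb were well expressed, MTAP and KLHL9 on one side and DMRTA1 on the other. MTAP had levels of 5564, 5237 and 5366 in KYSE70 and 6362, 5805 and 5332 in NRF2null-KYSE70, and KLHL9 had 6401 to 6573 and 5694 to 5946. DMRTA1 had 840.4, 883 and 901 in KYSE70 and 231, 309 and 308 in NRF2null-KYSE70 and fell (log2 fold change -1.64, adjusted p = 1.56e-07). CDKN2B-AS1, the antisense RNA of the locus, which shares 15.3% of the exon bases of CDKN2A on the opposite strand, was read at 84.5 to 140.2 normalized counts over the 6 libraries. Of the 22 protein-coding genes within 1 Mb, CDKN2A included, 16 were at 0 in all libraries, and 14 of these were interferon genes, which are silent in many cell types. RNA counts do not separate a deleted gene from a silent one.

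**Figure D4:**
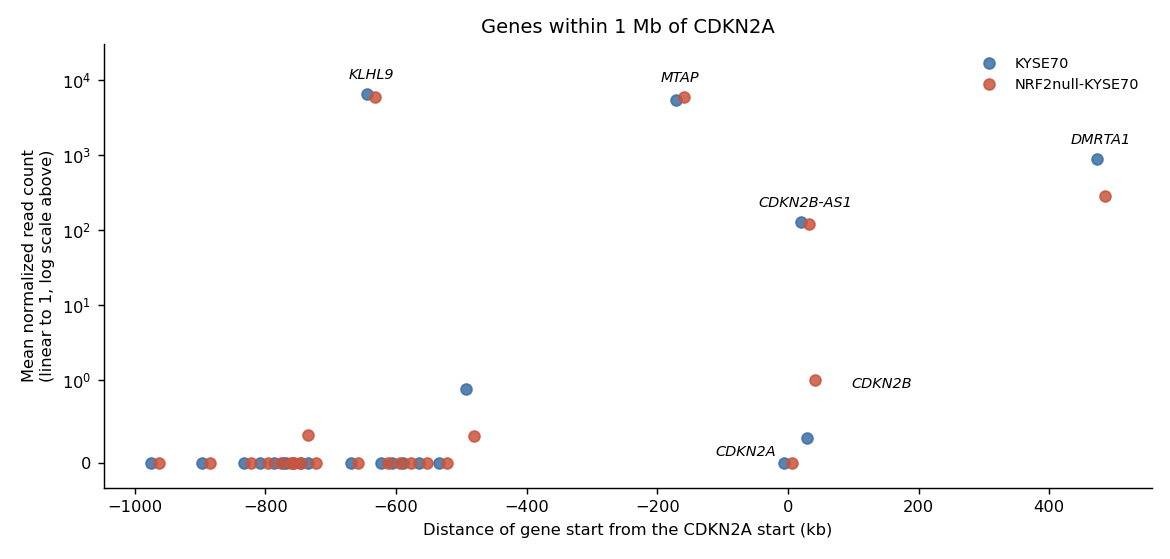
Mean normalized read count (vertical axis, linear to 1 and log scale above) of genes within 1 Mb of CDKN2A against the distance of their annotated start from that of CDKN2A (kb), in KYSE70 (blue) and NRF2null-KYSE70 (red), with points offset sideways. CDKN2A lies at 0 and CDKN2B at a few reads, between the well-expressed MTAP and DMRTA1, which fell from 875 to 283.

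Ordered by level per kb of exon, the KYSE70 libraries ran from CDK4 at 6304, CCND1 at 3984 and CCND3 at 1830 to CDKN1A at 778, CDK6 at 736, CDKN1B at 688, CCNE1 at 519, CCNE2 at 327 and CCND2 at 88.1 normalized read counts. Neighbours in this order were separate in every library except CDKN1A and CDK6, and CDK6 and CDKN1B, whose ranges overlapped. In NRF2null-KYSE70 the order was CCND1 at 6175, CDK4 at 3286, CDKN1A at 1160, CDKN1B at 1007, CCND3 at 944, CDK6 at 713, CCNE1 at 429, CCNE2 at 220 and CCND2 at 179, and no neighbours overlapped. CCND1 thus stood above CDK4 in NRF2null-KYSE70 and below it in KYSE70. With these lengths both CIP/KIP inhibitors stood above CCND3 in NRF2null-KYSE70, and CCND3 was the higher in KYSE70. The lengths are unions of all annotated exons, so these levels depend on the annotation. For CCND3 the union is 5761 bases, where its longest transcript has 2394. The same lengths are 9255 and 4335 for CDKN1B and 2996 and 2267 for CDKN1A. As counts without a length term, CCND3 at 5441 was above CDKN1A at 3475 in NRF2null-KYSE70 and below CDKN1B at 9321. The order was not recomputed with the longest transcripts, so the place of CCND3 against the inhibitors is given for union lengths only.

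Genes on either side of the members in the pathway were examined next. Of 13 RB family and E2F factor genes, 5 rose, 4 fell and 4 did not pass (median -0.00, against -0.01 over all genes), so that 9 of 13 passed where 57.6% of all genes did. The transcripts of 2 RB relatives moved apart, as RBL2 (p130) rose from 5889 ± 74.3 to 9141 ± 264 (log2 fold change 0.63, adjusted p = 1.13e-07) and RBL1 (p107) fell from 3086 ± 99.5 to 1659 ± 106 (-0.90, adjusted p = 9.41e-08). RB1 had a mean of 6782 ± 315 in KYSE70 and 7025 ± 174 in NRF2null-KYSE70 and did not pass (adjusted p = 0.401). The E2F partner TFDP2 (0.81) and the repressor-type factor E2F5 (0.64) rose, while E2F7 (-0.98) and E2F2 (-0.48) fell. E2F7 lies on 12q and RBL1 on 20q, where the arm median was -0.24, and after arm-centring they were at -0.60 and -0.65. TFDP2 on 3q and E2F5 on 8q, where the medians were 0.28 and 0.26, were then at 0.53 and 0.38.

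Of 11 other cyclins, CDKs and inhibitors, 10 were tested, with 4 higher, 2 lower and 4 not past the test (median 0.07), so that 6 of 10 passed, near the 57.6% of all genes. Only 2 were higher by limma without the trend. CDK2, the partner of cyclin E, fell from 6050 ± 302 to 3317 ± 250 (log2 fold change -0.87, adjusted p = 1.2e-07). It lies on 12q like CDK4, and was at -0.49 after arm-centring. The INK4 inhibitor CDKN2C fell from 784 ± 46.7 to 499.8 ± 62.8 (-0.65, adjusted p = 0.000156). CDKN1C, the third CIP/KIP gene, was low, with 32, 32 and 3 reads in KYSE70 and 69, 52 and 77 in NRF2null-KYSE70 (2.16, adjusted p = 0.0108, and 1.21 without the third KYSE70 library). CCNB2 (0.75), a mitotic cyclin on 15q with an arm median of 0.33 and itself at 0.42 after arm-centring, and CCNA1 (0.68) rose, whereas CCNA2, CCNB1 and CDK1 lay at 0.06, 0.07 and -0.02 and did not pass.

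Regulators that activate or degrade the G1 kinases and cyclins numbered 19, of which 18 were tested. Of these, 6 rose, 4 fell and 8 did not pass (median 0.07), so that 10 of 18 passed, near the 57.6% of all genes. FBXW7, the substrate receptor for degradation of cyclin E, rose to 145% of the KYSE70 level (log2 fold change 0.54, adjusted p = 1.73e-05). GSK3B (0.50, and 0.22 after arm-centring), a kinase that phosphorylates cyclin D1, and CDK7 (0.45), the CDK-activating kinase, also rose. The phosphatase CDC25B fell (-0.71) and CDC25A fell (-0.60), but they lie on 20p and 3p with arm medians of -0.77 and -0.48, and after arm-centring they were at 0.06 (adjusted p = 0.323) and -0.12 (adjusted p = 0.0956). DTL (-0.44), a receptor for degradation of p21, fell under each scaling.

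The E2F target genes of DNA synthesis were mostly lower in NRF2null-KYSE70. Of 23 genes, 16 fell, 1 rose and 6 did not pass, with a median of -0.31, where 28.3% of all genes fell. PCNA, the sliding clamp, fell from 30799 ± 703 to 14514 ± 580 (log2 fold change -1.09, adjusted p = 1.02e-09), or to 47.1%. MYBL2 (-0.83) and GINS1 (-0.78) also fell, and MCM2 (0.22) rose. All of these lie on arms with shifted medians. After arm-centring PCNA was at -0.32 (adjusted p = 9.37e-05), MYBL2 at -0.59, GINS1 at -0.01 (adjusted p = 0.916) and MCM2, on 3q, at -0.06 (adjusted p = 0.316). MCM2 also did not pass with quantile normalization (0.05, adjusted p = 0.380). After arm-centring 15 genes of the list were lower and 0 higher.

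The 22 p53 target genes were divided, with 9 higher, 10 lower and 3 not past the test (median -0.10), where 29.3% of all genes were higher and 28.3% lower. GDF15 rose from 383 ± 34.3 to 1496 ± 119 (log2 fold change 1.96, adjusted p = 3.16e-09), and PLK3 (1.36) and ZMAT3 (1.19) rose with it. SPATA18 fell from 396 ± 17.5 to 140.0 ± 20.9 (-1.50, adjusted p = 2.06e-06), and FAS (-2.35) and TP53I3 (-0.85) fell. MDM2, the p53 ubiquitin ligase on 12q, fell by 0.22 on the log2 scale (adjusted p = 0.00186). The median of 12q was -0.38, so MDM2 fell by less than its arm. After arm-centring 11 genes of the list were higher and 8 lower.

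Of 10 proliferation markers, 3 rose, 1 fell and 6 did not pass (median 0.07), where 57.6% of all genes passed. The split depended on the scaling, being 6 higher and 0 lower after arm-centring, and 2 higher and 2 lower with total scaling or quantile normalization. Without the first NRF2null library 4 were higher and 2 lower. CENPA (0.29) and BUB1 (0.27, and 0.15 with quantile normalization) rose. BIRC5 (0.21) also passed, but not with total scaling (0.14, adjusted p = 0.0681) or quantile normalization (0.11, adjusted p = 0.182). Meanwhile PLK1 fell (-0.19) but lies on 16p, where the arm median was -0.49, and was at 0.29 after arm-centring (adjusted p = 6.51e-05). MKI67 had 24470 to 31825 counts in KYSE70 and 26256 to 35870 in NRF2null-KYSE70, with overlap and an adjusted p of 0.535.

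**Figure D5:**
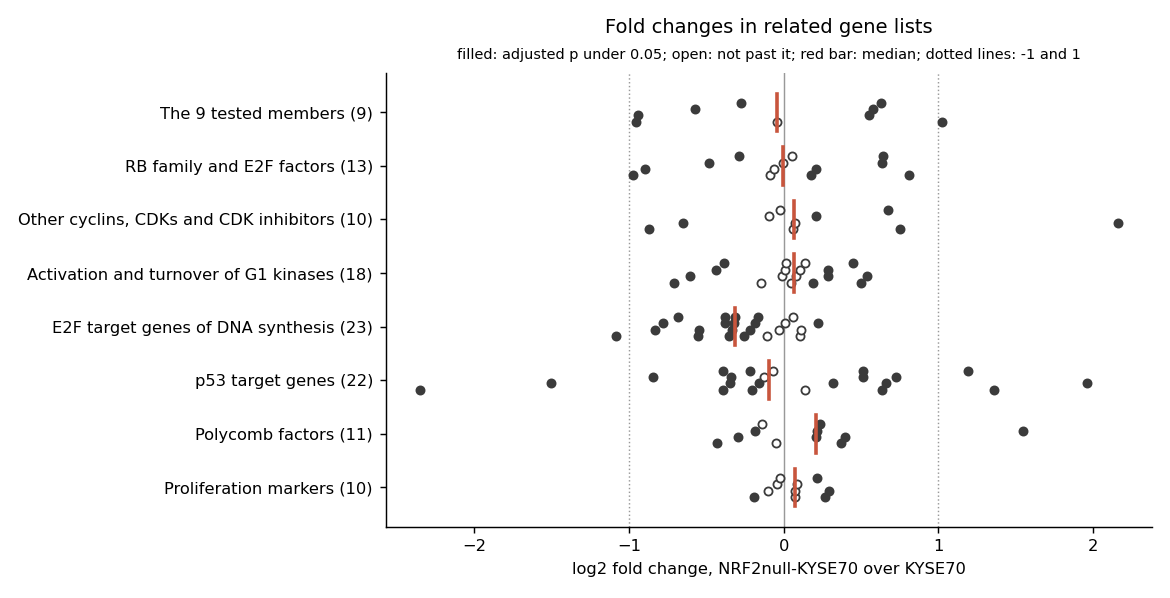
Log2 fold change of NRF2null-KYSE70 over KYSE70 (horizontal axis) for the tested genes of each list, filled at an adjusted p under 0.05 and open otherwise, with a red bar at the median and the number of genes in brackets. The 23 E2F targets of DNA synthesis centre on -0.31, and the other lists centre between -0.10 and 0.21.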

How the data were processed

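KYSE70 and NRF2null-KYSE70 were sequenced with n = 3 each. The submitters' processing notes name FastQC 0.11.5 and cutadapt 1.12, and per the study's methods reads were aligned with STAR 2.6.90c to hg38 and counted with featureCounts 1.5.1. The strand setting and the treatment of multimapped reads are not given in the sources used here. The authors deposited 1 table of normalized counts (a signal, each count divided by the DESeq2 size factor of its library). Whole reads were recovered from the steps in each library, and 100% of values were whole within 0.05 reads. Columns gave the line but no replicate numbers, so libraries are numbered in table order.

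Genes with a mean of at least 10 were tested with limma 3.58.1 (R 4.3.3) on log2(normalized count + 1), with a mean-variance trend, Benjamini-Hochberg adjustment over 15994 genes and thresholds of 0.05 and of 1 for the absolute log2 fold change, which is understated for low genes. On recovered reads edgeR 4.0.16 called 2350 genes and DESeq2 1.42.0 called 2341, against 2344 by limma. The scripts were tested on simulated data. Shares were compared with a 2-sided exact permutation test (scipy 1.17.1). Levels per kb and neighbours used GENCODE v44, in which 58472 of 58884 gene identifiers were found, and promoters came from RefSeq GRCh38.p14. Medians over 41 chromosome arms came from protein-coding genes at a mean of 50 or more and ran from -0.77 to 0.33.

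The text names all members, NFE2L2, up to 3 genes with the largest rise and fall in each of 7 pathway lists and, for CCND1 and CDKN1A, the 3 genes of the most similar profile. RB1, CCNA2, CCNB1, CDK1, MDM2, MKI67, the cell type markers, overlapping genes and genes near CDKN2A were named after their values were seen. The members and lists were chosen with earlier results of these data known. Alternatives were other pseudocounts, filters, scalings, tests, exon lengths and windows, arm-centring, and omission of each library.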

Additional observations from a re-analysis of the deposited data

How the results depend on the processing

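The changes of CCND1, CCND2, CCND3, CCNE1, CCNE2, CDK4, CDKN1A, CDKN1B and NFE2L2 kept their direction and an adjusted p under 0.05 under each of 18 alternatives, with ranges of 0.51 to 0.70, 0.94 to 1.07, -1.05 to -0.93, -0.35 to -0.25, -0.83 to -0.53, -1.07 to -0.56, 0.50 to 0.60, 0.47 to 0.57 and -0.80 to -0.67 on the log2 scale. The number of members past both thresholds was 1, and became 0 with arm-centring, 3 with quantile normalization (CCND2, CCND3 and CDK4), 2 with total scaling (CCND3 and CDK4) and 8 with no cut-off on the fold change. Without single libraries it ranged from 0 to 1. Total scaling moved the median of all genes by -0.08. Over all genes the count of 2344 became 1511 with a filter at a mean of 50 and 9206 with no cut-off on the fold change. The rise in the CCND1 share was 23.8 percentage points with the length of the longest transcript, and that of the CDK6 share was 5.22 with the longest transcript and 14.6 with no length term. In windows of 3 Mb the neighbour medians became 0.0070 for CCND1, -0.038 for CCNE1, 0.42 for CDK6, 0.014 for CDKN1A, 0.32 for CDKN1B and 0.038 for CDKN2A. The causes were not tested beyond the construction of each alternative. The number of called genes in each pathway list stayed within 1.5 times its value, but not its split into higher and lower for proliferation markers, the other cyclins and CDKs, and the E2F targets, whose 1 higher gene became 0 with arm-centring or quantile normalization, 2 without the third KYSE70 library and 3 without the first NRF2null library. No paired analysis was possible because the columns carry no replicate numbers. With 3 libraries a line, the exact permutation test cannot go below p = 0.1, and levels of CDKN2A under 3 reads were not detectable at this depth.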

Other observations

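Polycomb factors, which are known to silence the CDKN2A locus in many cells, were examined because CDKN2A was at 0 in both lines. Of 11 genes, 6 rose, 3 fell and 2 did not pass (median log2 fold change 0.21, against -0.01 over all genes), where 29.3% of all genes were higher and 28.3% lower. CBX7, a reader subunit of the Polycomb repressive complex, rose from 704 ± 44.9 to 2059 ± 195 normalized read counts (log2 fold change 1.54, limma adjusted p = 8.99e-09). EZH1 (0.40), a histone methyltransferase, and RNF2 (0.37), a histone ubiquitin ligase, also rose. The methyltransferase EZH2 (-0.30, and -0.46 after arm-centring), its partner EED (-0.19) and the reader CBX2 (-0.43) fell. Whether any of these factors acts on CDKN2A in these lines was not tested.

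Over 11997 genes with a mean of at least 100, the profiles closest to CCND1 over the 6 libraries, by Euclidean distance of log2 values centred on each gene, were those of ZMIZ1 (0.0662), SIPA1L3 (0.0671) and ACTN4 (0.0718). Their log2 fold changes were 0.61, 0.65 and 0.62. The profiles closest to CDKN1A were those of TAF4B (0.0355), EVI5 (0.0570) and ADM (0.0621), with log2 fold changes of 0.57, 0.62 and 0.55. Since the distance includes the difference between the lines, fold changes near that of the member follow from how these genes were picked.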
